A study of Mus musculus with 8 samples.

Results

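The genes described here encode the constitutive proteasome and the activators that bind it. They were chosen by name: every gene on the array whose RefSeq transcript belongs to a symbol beginning Psma, Psmb, Psmc, Psmd or Psme and a number, leaving out the immunoproteasome subunits Psmb8, Psmb9 and Psmb10. The rule took 42 of 19752 genes named on the array, and 40 of them were among the 15140 genes tested. The other two, Psma8, a form of an alpha subunit restricted to the male germ line, and Psmb11, the beta subunit of thymic cortical epithelium, were not well above background on any of the 8 arrays. Psmc3ip and Psme3ip1 share the name pattern but are no subunits: Psmc3ip is a meiotic recombination factor and Psme3ip1 a protein that binds the activator Psme3. The remaining 38 genes encode the subunits, base chaperones and activators, and all 40 tested genes were well above background on all 8 arrays.

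RNA came from splenic T cells of C57BL/6 mice, the strain onto which the Lsp1 deficiency had been crossed for 10 generations, and the mice were 8 to 12 weeks old. Lsp1 is an actin-binding protein of leukocytes, and by its title the series deals with T cell migration in rheumatoid arthritis. The 4 groups were Lsp1-deficient (KO) cells stimulated for 6 h with antibodies to CD3 and CD28, KO cells in medium, stimulated wild-type (WT) cells and WT cells in medium, with 2 arrays each. The antibodies engage the T cell receptor complex and the costimulatory receptor CD28. The labels do not state how long the cells in medium were kept, whether each array stands for another animal or for a pool, so every p-value below measures the spread between these arrays only, which may be technical. The deficiency is described for the mice as a whole and no cell type that drives it is named.

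The proteasome degrades proteins tagged with ubiquitin. Its 20S core is a barrel of outer rings of alpha subunits, which gate the channel, and inner rings of beta subunits, which cut proteins at catalytic subunits. The 19S particle caps the core: its lid removes ubiquitin, and its base binds ubiquitin chains and unfolds substrates with a ring of ATPases. PA28 and PA200 are other caps, and in lymphocytes interferon signalling raises PA28 together with the immunoproteasome subunits, which replace the catalytic beta subunits and favour peptides for antigen presentation.

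Levels are given as the log2 of a probe's processed signal over its own array's 75th percentile, so 0 is the 75th percentile signal. Differences are log2 differences of these levels from 1 limma fit to all 8 arrays, with its standard error (SE), and a gene was called at a Benjamini-Hochberg adjusted p under 0.05 over all genes tested. Levels of different genes come from different probes and are not set against each other.

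Lsp1 checked the genotype labels: its levels were 3.69 and 3.65 in stimulated KO cells and 3.64 and 3.48 in KO cells in medium, against 7.06 and 6.99 in stimulated WT cells and 7.48 and 7.24 in WT cells in medium. All 12 T cell markers examined were well above background on every array. So were all 10 B cell and all 8 natural killer cell markers. Median log2 levels of T cell markers, relative to the WT medium mean, were -0.10 and -0.36 in stimulated KO cells. They were 0.09 and -0.35 in KO medium, the second value of each KO pair being the array numbered 2. In stimulated WT cells they were -0.30 and -0.19, and in WT medium -0.03 and 0.03. Relative to the WT medium mean, median log2 levels of B cell markers were -1.01 and -0.88 in stimulated KO cells. They were -0.56 and -0.75 in KO medium, -0.17 and -0.31 in stimulated WT cells, and 0.26 and -0.26 in WT medium. For natural killer markers they were -0.71 and -0.76, -0.44 and -0.62, -0.07 and -0.32, and 0.08 and -0.08, in the same order. Their part was not tested. In other markers the KO arrays numbered 2 stood apart. Of 12 neutrophil markers 10 were tested, all but Ly6g and Mmp8, and their log2 summed level was 7.24 and 8.78 in stimulated KO cells, 7.58 and 9.58 in KO cells in medium, 7.19 and 7.16 in stimulated WT cells and 8.0 and 7.42 in WT cells in medium, the second KO value of each pair being the array numbered 2. On those same arrays the median level of the neutrophil markers was 3.40 (stimulated) and 4.41 (medium) log2 units above the WT medium mean. That of erythroid and platelet markers was 2.30 and 1.76 above it. Monocyte, macrophage and dendritic cell markers were 2.18 and 1.51 above it, and cell cycle genes 1.35 and 1.29. In bulk RNA, fewer cells of a type and less RNA per cell cannot be told apart, and the counts and medians that involve KO arrays are also given without these arrays.

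The promoters of 5 members are shown because 4 of them were the members with the largest stimulation differences averaged over genotypes and the remaining one, Psmd4, had a negative difference in both genotypes. The sequences are RefSeq windows of build GRCm38.p6, read 5′ to 3′ from 250 bases before to 50 bases after the gene's start. Capitals mark matches on either strand to any of 6 short motifs: CCAAT (bound by NF-Y), TGACNNNGC (the core of the antioxidant response element), CCGGAAG (ETS factors), CACGTG (E-box), GAAANNGAA (the core of the interferon-stimulated response element) and GGGCGG (Sp1). Psma4 lies on the + strand at chr9:54950609-54950908, Psma7 on the - strand at chr2:180042415-180042714, Psme1 on the + strand at chr14:55578244-55578543, Psme2 on the - strand at chr14:55591052-55591351 (1 of the 2 windows listed for it), and Psmd4 on the - strand at chr3:95042565-95042864.
Psma4: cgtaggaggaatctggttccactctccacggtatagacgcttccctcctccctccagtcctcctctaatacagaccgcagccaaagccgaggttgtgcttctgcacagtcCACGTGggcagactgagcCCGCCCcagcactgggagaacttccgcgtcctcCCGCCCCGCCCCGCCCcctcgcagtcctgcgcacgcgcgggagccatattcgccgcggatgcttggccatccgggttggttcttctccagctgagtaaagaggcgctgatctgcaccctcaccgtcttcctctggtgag
Psma7: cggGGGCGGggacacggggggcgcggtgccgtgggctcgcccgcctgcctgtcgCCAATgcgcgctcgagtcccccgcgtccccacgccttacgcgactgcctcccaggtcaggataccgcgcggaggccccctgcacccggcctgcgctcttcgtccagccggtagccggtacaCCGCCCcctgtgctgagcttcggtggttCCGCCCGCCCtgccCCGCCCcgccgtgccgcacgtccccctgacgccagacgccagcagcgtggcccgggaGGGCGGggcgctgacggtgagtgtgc
Psme1: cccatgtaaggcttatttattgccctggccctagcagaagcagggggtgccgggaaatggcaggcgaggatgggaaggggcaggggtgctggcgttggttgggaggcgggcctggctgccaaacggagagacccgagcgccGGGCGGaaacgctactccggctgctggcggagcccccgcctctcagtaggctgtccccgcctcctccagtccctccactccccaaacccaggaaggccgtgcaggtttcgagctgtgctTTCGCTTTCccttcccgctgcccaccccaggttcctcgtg
Psme2: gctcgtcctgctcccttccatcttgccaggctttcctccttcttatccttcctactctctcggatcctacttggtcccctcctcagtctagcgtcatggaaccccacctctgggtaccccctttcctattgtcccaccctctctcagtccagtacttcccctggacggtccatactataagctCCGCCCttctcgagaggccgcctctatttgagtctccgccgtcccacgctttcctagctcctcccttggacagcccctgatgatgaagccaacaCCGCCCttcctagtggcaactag
Psmd4: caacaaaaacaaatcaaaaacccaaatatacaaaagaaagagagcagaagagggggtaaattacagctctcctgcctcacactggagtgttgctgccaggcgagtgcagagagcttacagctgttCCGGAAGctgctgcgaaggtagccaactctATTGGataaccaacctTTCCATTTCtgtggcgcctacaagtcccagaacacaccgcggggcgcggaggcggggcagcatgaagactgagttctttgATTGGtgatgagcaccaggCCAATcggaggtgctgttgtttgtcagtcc
Psme1 held an interferon-type core just after its start, printed on the opposite strand as TTCGCTTTC, and Psmd4 held one too, printed as TTCCATTTC. Psma4 and Psma7 held several Sp1 matches, which can overlap each other, and Psma7 also held CCAAT. Windows were matched for 32 of 38 members. CCAAT was in 37.5% of the 32, against 41.1% of all 27025 genes with a window and 42.5% of the 12095 with a window that were tested. The ETS motif was in 37.5% of the members, against 9.93% of all genes and 17% of tested genes. The interferon-type core was in 18.8% of the members, against 9.76% and 8.87%, and the antioxidant-type core was in 18.8%, against 14.0% and 16.5%. The E-box was in 9.38%, against 8.09% and 11%, and GGGCGG was in 65.6%, against 38.2% and 61.1%. These are matches of letters in 1 window a gene or more, not binding sites.

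The first question was how proteasome genes responded to 6 h of receptor stimulation. The response was positive for most members and modest in size, and it was largest in alpha subunits, lid subunits and PA28. In KO cells 35 of 40 differences were positive, with a median of 0.27 (1.21-fold), against 41.2% positive and a median of -0.08 over all genes tested. In WT cells 37 of 40 were positive, with a median of 0.30 (1.23-fold), against 41.1% positive and a median of -0.09 over all genes. The 4 stimulated arrays lay above all 4 medium arrays for 30 of 40 members and below them for none, against 15.6% of all genes above and 16% below. Within KO cells this held for 31 members above and 2 below, against 22.8% and 28.6% of all genes. Within WT cells it was 32 above and 1 below, against 27.4% and 42.1%. Without both KO arrays numbered 2, the 3 stimulated arrays lay above the 3 medium arrays for 30 members and below them for 1, against 20.2% and 34.1% of all genes. All 4 medium arrays sat in one row of the slide and all 4 stimulated arrays in the other, by the scanner's array positions, so slide row and stimulation cannot be told apart.

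**Figure D1:**
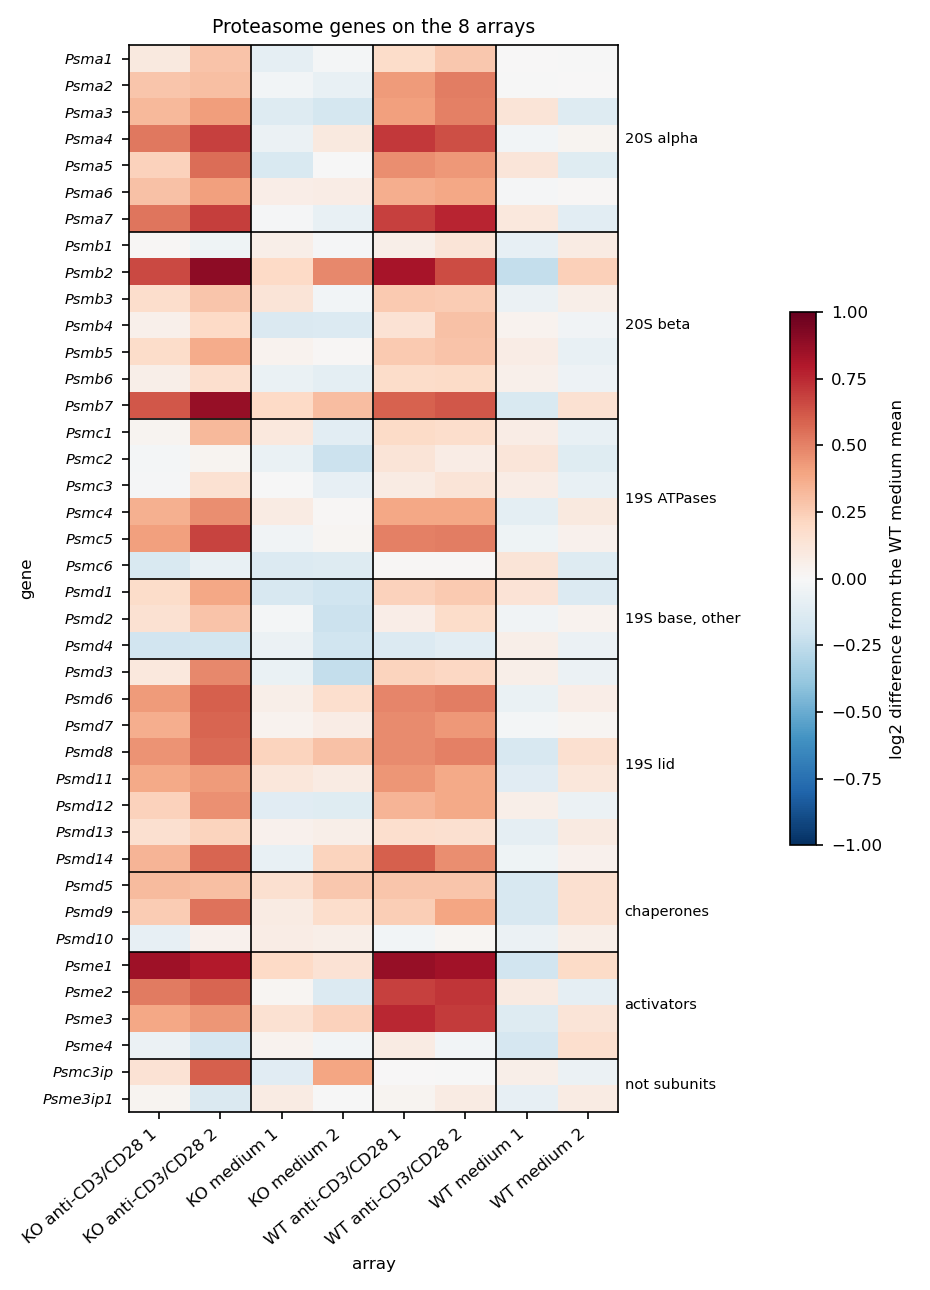
Heat map of the 40 tested genes (vertical axis, grouped by role) on the 8 arrays (horizontal axis), coloured by the log2 difference from the gene's mean in WT medium. The stimulated KO and WT columns are red for most genes, and the exceptions include Psmb1, Psmc6, Psmd4, Psmd10 and Psme4.

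Few members passed the test within a genotype. In KO cells 3 of 40 were called higher, Psma4, Psma7 and Psme2 (7.5%, against 5.85% of all genes called higher), and none lower (2.28% of all genes). At an unadjusted limma p under 0.05, 19 members were higher and none lower, against 1924 higher and 1921 lower of all 15140 genes. In WT cells 6 of 40 were called higher, Psma2, Psma4, Psma7, Psme1, Psme2 and Psme3 (15% of the members, against 6.42% of all genes), and none lower (3.84% of all genes). Unadjusted, again 19 members were higher and none lower, against 2004 higher and 2467 lower of all 15140 genes. The KO share is near its background. No member was called in KO cells without KO stimulated array 2, KO medium array 1 or 2, or WT stimulated array 1 or 2, nor without both KO arrays numbered 2, where 32 of 40 KO differences were positive with a median of 0.23. In WT cells fewer or no members were called without WT stimulated array 1 or 2 or WT medium array 1 or 2. The share of all genes called in these fits is not given.

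A contrast averaged over both genotypes, added after these values were seen, called 20 of 40 members higher and none lower (50%, against 12.2% of all genes called higher and 12.3% called lower). Its median over the members was 0.33 (1.26-fold), against -0.08 over all genes. The 20 comprised 6 of 7 alpha subunits, 2 of 7 beta subunits, 2 of 6 ATPases, 1 of 3 other base subunits, 6 of 8 lid subunits, none of 3 chaperones and 3 of 4 activators. Without both KO arrays numbered 2 the count was 9 of 40, against 9.12% of all genes, and the median 0.27. With 1 array left out at a time the median over the members ran from 0.27 to 0.37. Fewer members were called without some of the arrays. The share of all genes called then is not given, so these fits do not set the members against other genes.

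Most members have bright probes, and brightness moved with the stimulation difference over all genes. With the tested genes split by mean signal into 4 bins of 3785 genes, 30 members lay in the brightest bin, 9 in the next, 1 in the one after and none in the dimmest. The median averaged difference over all genes was -0.03 in the brightest bin and -0.17 in the dimmest. For the 30 members in the brightest bin it was 0.36, and 17 of them were called higher, against 16.5% of all genes in that bin.

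**Figure D2:**
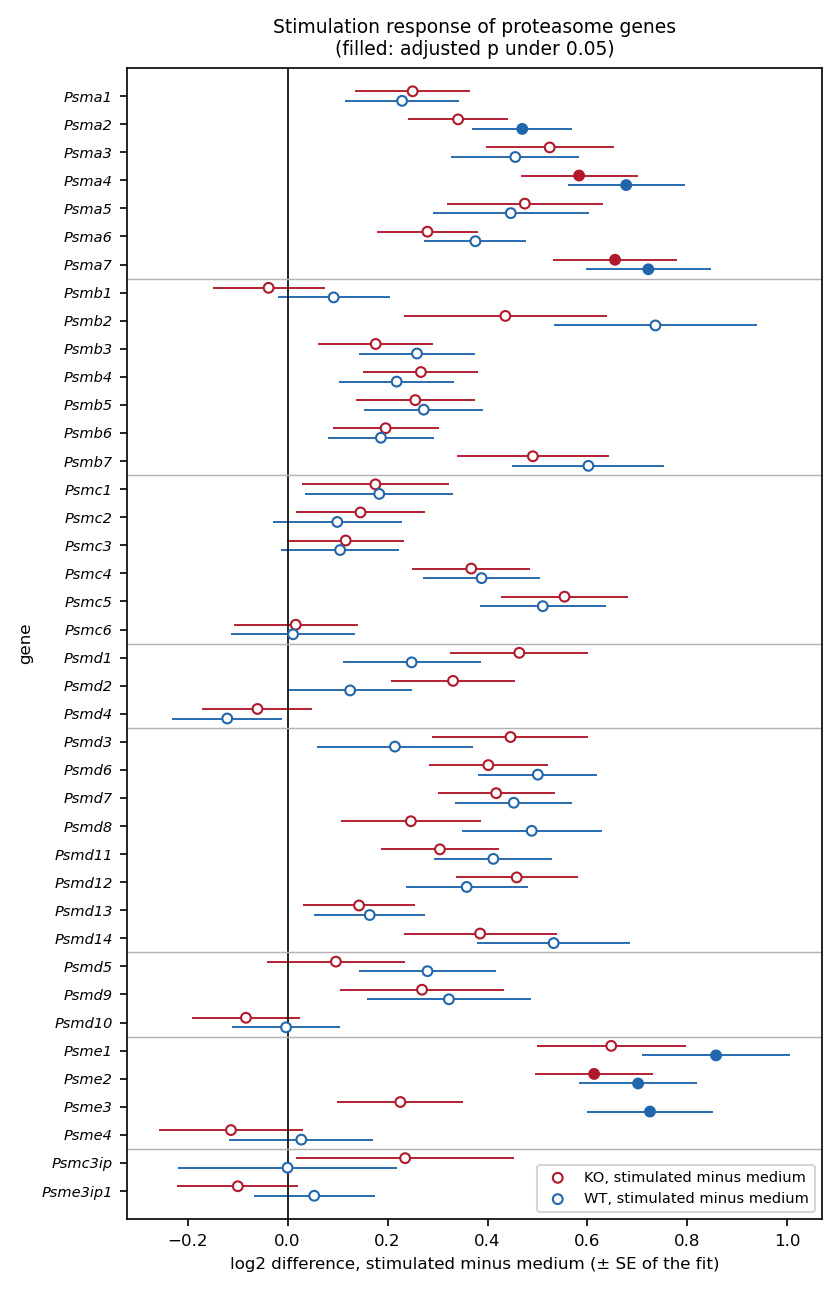
Log2 difference, stimulated minus medium (horizontal axis), for each of the 40 genes (vertical axis) in KO cells (red) and WT cells (blue), with bars of 1 SE of the fit, and filled points where the adjusted p was under 0.05. The filled points are Psma4, Psma7 and Psme2 in KO cells and Psma2, Psma4, Psma7, Psme1, Psme2 and Psme3 in WT cells.

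All 7 alpha subunits had positive differences in both genotypes, and this group had the highest median of the core and the 19S groups, 0.47 in KO cells and 0.46 in WT cells. Psma7 had levels of 5.87 and 6.03 in stimulated KO cells, against 5.33 and 5.26 in KO medium, and of 6.02 and 6.10 in stimulated WT cells, against 5.44 and 5.24 in WT medium. It rose by 0.66 ± 0.12 in KO cells (SE, adjusted p = 0.0312) and by 0.72 ± 0.12 in WT cells (adjusted p = 0.0230), and the stimulated arrays did not overlap the medium ones.

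Psma4 had levels of 4.13 and 4.29 in stimulated KO cells, against 3.56 and 3.71 in KO medium, and of 4.32 and 4.26 in stimulated WT cells, against 3.58 and 3.64 in WT medium. It rose by 0.58 ± 0.12 in KO cells (SE, adjusted p = 0.0371) and by 0.68 ± 0.12 in WT cells (adjusted p = 0.0232). A second Psma4 probe gave 0.55 in KO cells and 0.55 in WT cells. Both probes thus separated stimulated from medium arrays in each genotype.

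Psma2 had levels of 6.77 and 6.79 in stimulated KO cells, against 6.46 and 6.42 in KO medium, and of 6.92 and 7.0 in stimulated WT cells, against 6.49 and 6.49 in WT medium. It rose in WT cells by 0.47 ± 0.10 (SE, adjusted p = 0.0403), while the KO difference was 0.34 ± 0.10 (adjusted p = 0.100). Its stimulated and medium arrays did not overlap in either genotype. The other alpha subunits had differences of 0.52 in KO and 0.46 in WT cells (Psma3), 0.47 and 0.45 (Psma5), 0.28 and 0.38 (Psma6), and 0.25 and 0.23 (Psma1). Psma3, Psma5 and Psma6 were called in the averaged contrast, and Psma1 was not (adjusted p = 0.0792).

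The catalytic beta subunits were not called within either genotype. Psmb5, which carries the chymotrypsin-like site, had levels of 6.5 and 6.69 in stimulated KO cells, against 6.35 and 6.33 in KO medium, and of 6.58 and 6.60 in stimulated WT cells, against 6.39 and 6.24 in WT medium. Its differences were 0.26 ± 0.12 in KO cells and 0.27 ± 0.12 in WT cells (SE, adjusted p = 0.243 and 0.188). A second Psmb5 probe gave 0.43 and 0.41, a larger difference on the dimmer probe.

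Psmb6, which carries the caspase-like site, had levels of 6.09 and 6.21 in stimulated KO cells, against 5.97 and 5.94 in KO medium, and of 6.22 and 6.23 in stimulated WT cells, against 6.09 and 5.98 in WT medium. Its differences were 0.20 and 0.19 ± 0.11 (SE, adjusted p = 0.307 in KO and 0.289 in WT cells). Psmb7, which carries the trypsin-like site, had levels of 3.15 and 3.39 in stimulated KO cells, against 2.73 and 2.83 in KO medium, and of 3.11 and 3.14 in stimulated WT cells, against 2.37 and 2.68 in WT medium. For all 3 catalytic subunits the stimulated arrays lay above the medium arrays within each genotype, against 22.8% of all genes in KO and 27.4% in WT cells.

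Psmb7 had differences of 0.49 ± 0.15 in KO cells and 0.60 ± 0.15 in WT cells (SE, adjusted p = 0.111 and 0.0598), and it rose in the averaged contrast by 0.55 ± 0.11 (adjusted p = 0.0173). Among the structural beta subunits Psmb2 rose in the averaged contrast by 0.59 ± 0.14 (SE, adjusted p = 0.0332), from differences of 0.44 in KO and 0.74 in WT cells. Its levels in WT medium, 1.31 and 1.79, were the widest pair among the members' WT medium pairs. Psmb3, Psmb4 and Psmb1 were not called, with differences of 0.18 and 0.26, 0.27 and 0.22, and -0.04 and 0.09 in KO and WT cells.

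The 19S ATPases were uneven. Psmc5 had levels of 4.54 and 4.81 in stimulated KO cells, against 4.10 and 4.15 in KO medium, and of 4.64 and 4.65 in stimulated WT cells, against 4.10 and 4.17 in WT medium. Its differences of 0.55 ± 0.13 in KO and 0.51 ± 0.13 in WT cells (SE) had adjusted p of 0.0523 and 0.0561, and it rose in the averaged contrast by 0.53 ± 0.09 (adjusted p = 0.0106). Psmc4 also rose there, by 0.38 ± 0.08 (SE, adjusted p = 0.0241).

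The other 4 ATPases, whose products form the same hexameric ring, were not called in any contrast. Psmc1, Psmc2, Psmc3 and Psmc6 had differences of 0.18, 0.15, 0.12 and 0.02 in KO cells and of 0.18, 0.10, 0.11 and 0.01 in WT cells, with SE between 0.12 and 0.15. On these brightest probes their stimulated and medium arrays overlapped when the arrays of both genotypes were pooled. The sign of Psmc6 turned to -0.02 in KO and -0.03 in WT cells under quantile normalization. Second probes gave 0.29 and 0.27 for Psmc1, 0.15 and 0.07 for Psmc2, and 0.17 and 0.27 for Psmc3 in KO and WT cells. On the second Psmc1 and Psmc3 probes all stimulated arrays lay above all medium arrays. On the second Psmc2 probe they overlapped.

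The other base subunits differed in sign. Psmd1 and Psmd2, the large scaffolds of the base, had differences of 0.46 and 0.33 in KO cells and 0.25 and 0.13 in WT cells, and only Psmd1 of the 3 base subunits other than ATPases rose in the averaged contrast (0.36 ± 0.10, SE, adjusted p = 0.0449). Psmd4, a ubiquitin receptor, had levels of 6.2 and 6.21 in stimulated KO cells, against 6.33 and 6.19 in KO medium, and of 6.26 and 6.29 in stimulated WT cells, against 6.45 and 6.33 in WT medium. Its differences were -0.06 ± 0.11 in KO and -0.12 ± 0.11 in WT cells (SE, adjusted p = 0.777 and 0.503), so it passed no test in either direction. In WT cells its stimulated arrays lay below the medium ones, against 42.1% of all genes.

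All 8 lid subunits had positive differences in both genotypes, with medians of 0.39 in KO and 0.43 in WT cells, and none was called within a genotype. The 6 subunits Psmd6, Psmd7, Psmd8, Psmd11, Psmd12 and Psmd14, rose in the averaged contrast, by 0.36 to 0.46. Psmd14, the deubiquitinase that removes ubiquitin chains as substrates enter, had levels of 2.13 and 2.38 in stimulated KO cells, against 1.72 and 2.02 in KO medium, and of 2.39 and 2.26 in stimulated WT cells, against 1.75 and 1.84 in WT medium. It rose by 0.46 ± 0.11 in the averaged contrast (SE, adjusted p = 0.0295).

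Psmd7, the inactive partner of Psmd14, rose in the averaged contrast by 0.43 ± 0.08 (SE, adjusted p = 0.0153). Its levels were 3.56 and 3.78 in stimulated KO cells, against 3.23 and 3.27 in KO medium, with 3.67 and 3.63 in stimulated WT cells, against 3.18 and 3.22 in WT medium. Psmd3 and Psmd13, which like most lid subunits form its horseshoe-shaped scaffold, were not called, with averaged differences of 0.33 ± 0.11 and 0.15 ± 0.08 (SE, adjusted p = 0.0766 and 0.200). Psmd5, Psmd9 and Psmd10, chaperones that help to assemble the base and leave it, had differences of 0.10, 0.27 and -0.08 in KO cells and 0.28, 0.32 and 0.00 in WT cells, and none was called. Second probes gave 0.16 and 0.14 for Psmd9 and -0.08 and -0.29 for Psmd10 in KO and WT cells.

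**Figure D3:**
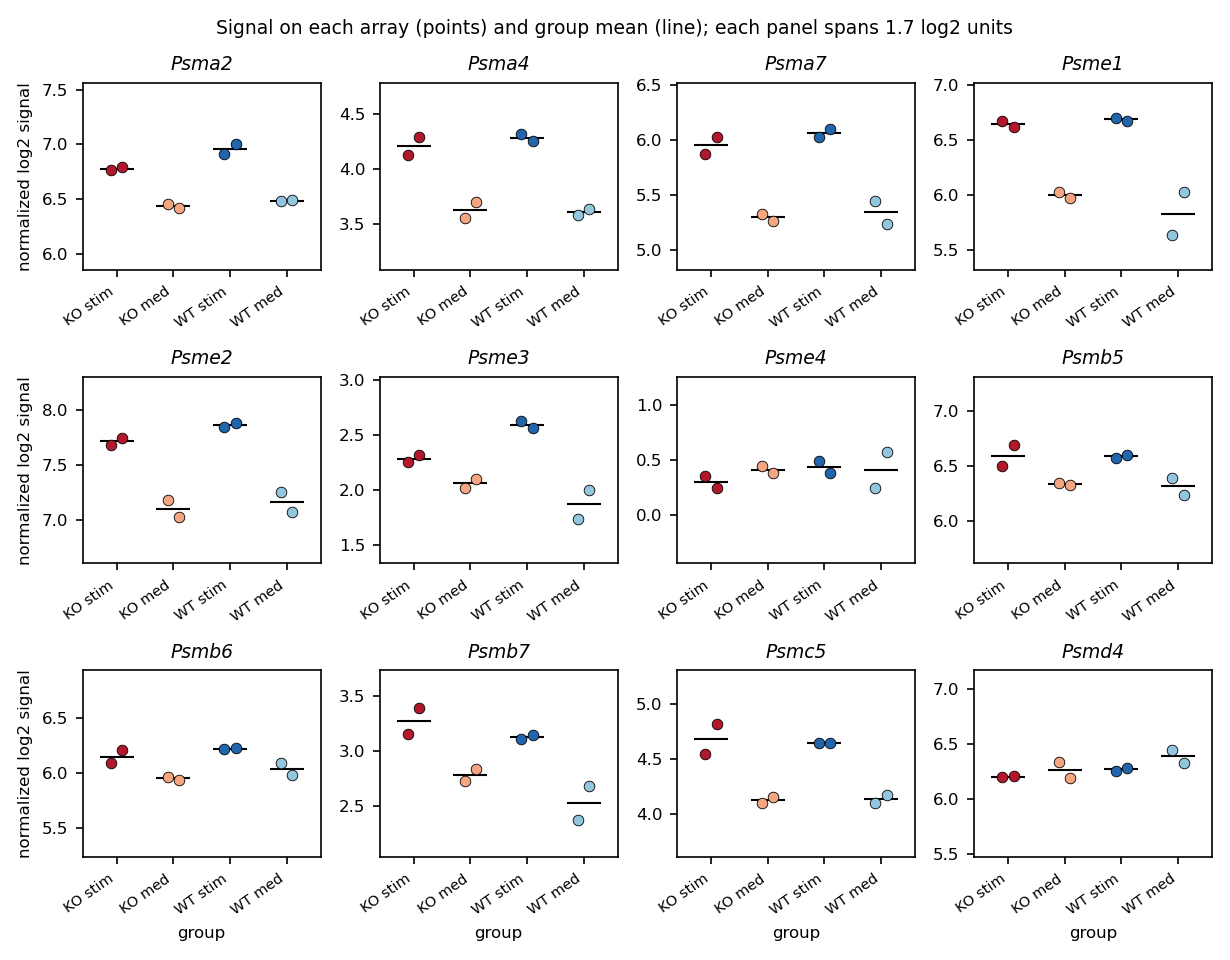
Level on each array (points, log2 signal over the array's 75th percentile, vertical axis) and group mean (lines) for 12 genes in stimulated KO (KO stim), KO medium (KO med), stimulated WT (WT stim) and WT medium (WT med) cells. Both stimulated groups lie above both medium groups for Psma2, Psma4, Psma7, Psme1, Psme2, Psme3, Psmb5, Psmb6, Psmb7 and Psmc5. For Psme4 and Psmd4 stimulated and medium arrays overlap with the genotypes pooled, but not for Psme4 in KO or Psmd4 in WT cells, where the stimulated ones are lower.

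Of the activators, the PA28 subunits had positive differences in both genotypes and PA200 did not, and Psme1 had the largest averaged difference of the 40 members, 0.75 (1.68-fold). Psme1 and Psme2, which together form the ring that caps the core in the cytoplasm, are both known as interferon targets. Psme2 had levels of 7.69 and 7.75 in stimulated KO cells, against 7.18 and 7.03 in KO medium, and of 7.85 and 7.88 in stimulated WT cells, against 7.25 and 7.08 in WT medium. It rose by 0.61 ± 0.12 in KO cells (SE, adjusted p = 0.0330) and by 0.70 ± 0.12 in WT cells (adjusted p = 0.0216), and a second probe gave 0.87 and 1.0.

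Psme1 had levels of 6.68 and 6.62 in stimulated KO cells, against 6.03 and 5.97 in KO medium, and of 6.70 and 6.67 in stimulated WT cells, against 5.64 and 6.03 in WT medium. It rose in WT cells by 0.86 ± 0.15 (1.81-fold, SE, adjusted p = 0.0233), and its KO difference was 0.65 ± 0.15 (1.57-fold, adjusted p = 0.0536). The pair in WT medium was far apart while the other 3 pairs were tight, and no stimulated array overlapped a medium one.

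Psme3, which forms a nuclear ring of its own, had levels of 2.26 and 2.31 in stimulated KO cells, against 2.02 and 2.10 in KO medium, and of 2.62 and 2.57 in stimulated WT cells, against 1.74 and 2.0 in WT medium. It rose in WT cells by 0.73 ± 0.13 (SE, adjusted p = 0.0236), and its KO difference was 0.23 ± 0.13 (adjusted p = 0.323). Psme4, the PA200 cap, had levels of 0.36 and 0.24 in stimulated KO cells, against 0.44 and 0.38 in KO medium, and of 0.49 and 0.38 in stimulated WT cells, against 0.24 and 0.58 in WT medium. Its differences of -0.11 in KO and 0.03 in WT cells, each ± 0.14 (SE), passed no test. Its stimulated arrays lay below the medium ones in KO cells, against 28.6% of all genes, and overlapped them in WT cells. A second Psme4 probe gave -0.20 in KO and -0.18 in WT cells. The activators thus did not move as 1 group.

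Of the genes that share only the name pattern, Psmc3ip had differences of 0.24 ± 0.22 in KO and 0.00 ± 0.22 in WT cells, and Psme3ip1 of -0.10 ± 0.12 and 0.05 ± 0.12 (SE). Neither was called in any contrast. Psmc3ip was higher on the KO arrays numbered 2, with levels of -0.55 and -0.10 in stimulated KO cells and -0.81 and -0.31 in KO medium, the second value of each pair being that array, against -0.69 and -0.70 in stimulated WT cells and -0.64 and -0.75 in WT medium. Cell cycle and neutrophil markers moved with it on those arrays, and their part was not tested.

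The second question was whether loss of Lsp1 changed the members. In medium none of 40 was called between KO and WT cells (0.00661% of all genes called in either direction). None had an unadjusted limma p under 0.05, against 864 of all 15140 genes. The differences, KO minus WT, ran from -0.18 (Psmd1) to 0.34 (Psmb2), with a median of 0.02 and SE of 0.10 to 0.22. Positive differences numbered 23 of 40, against 39.7% and a median of -0.06 over all genes. After stimulation again none was called (0.0198% of all genes), with differences from -0.31 (Psme3) to 0.37 (Psmc3ip) and a median of -0.03. Of the members 1 had an unadjusted limma p under 0.05, against 762 of all 15140 genes. With 2 arrays a group, an exact permutation test of a single gene between 2 groups could not go below p = 0.333.

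Between stimulated KO and stimulated WT cells 15 of 40 differences were positive, against 40.9% and a median of -0.04 over all genes. All 7 alpha subunits were lower in stimulated KO than stimulated WT cells, by log2 differences between -0.18 and -0.02, and so were all 4 activators, between -0.31 and -0.04, none of them called. This did not hold under every setting: with quantile normalization 4 of 7 alpha subunits and 3 of 4 activators were lower, and without KO stimulated array 1 it was 3 of 7 and 4 of 4. The median over the members was then 0.0362 (27 of 40 positive) and 0.0486 (26 of 40 positive). Both KO stimulated arrays lay below both WT stimulated arrays for 9 members and above them for 3, against 24.8% and 13.2% of all genes. Without both KO arrays numbered 2 again no member was called between genotypes, with a median of 0.02 in medium (21 of 40 positive) and of -0.09 after stimulation (4 of 40 positive, against a median of -0.03 over all genes). The 1 stimulated KO array left lay below both stimulated WT arrays for 31 members and above them for 3, against 44% and 31.4% of all genes. A p-value that misses the threshold does not show that KO and WT cells were alike, and the SE limits what could be called.

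The third question, whether the stimulation response itself differed by genotype, was tested as the difference between the KO and the WT response. None of 40 members was called (0.00661% of all genes called in either direction), and the differences ran from -0.50 to 0.24 with a median of -0.04. Of them 15 of 40 were positive, against 54.7% and a median of 0.02 over all genes. The lowest belonged to Psme3, -0.50 ± 0.18 (SE, limma, adjusted p = 1.0), its unadjusted p being 0.0307 by the limma fit across all genes, and no other member was under 0.05 unadjusted. Of all 15140 genes 459 were under 0.05 unadjusted. For Psme1 it was -0.21 ± 0.21 and for Psma2 -0.13 ± 0.14 (SE, adjusted p = 1.0 for both), so a response called in WT cells only was not shown to differ from that in KO cells. Across the 40 members the KO and WT responses, which share no arrays, correlated with a Pearson's r of 0.81 and a Spearman's rho of 0.79, given as a description because the genes share the same 8 arrays. Without both KO arrays numbered 2 none was called, the median was -0.12 (3 of 40 positive), Psme3 had -0.49 and the correlations were 0.88 and 0.87.

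**Figure D4:**
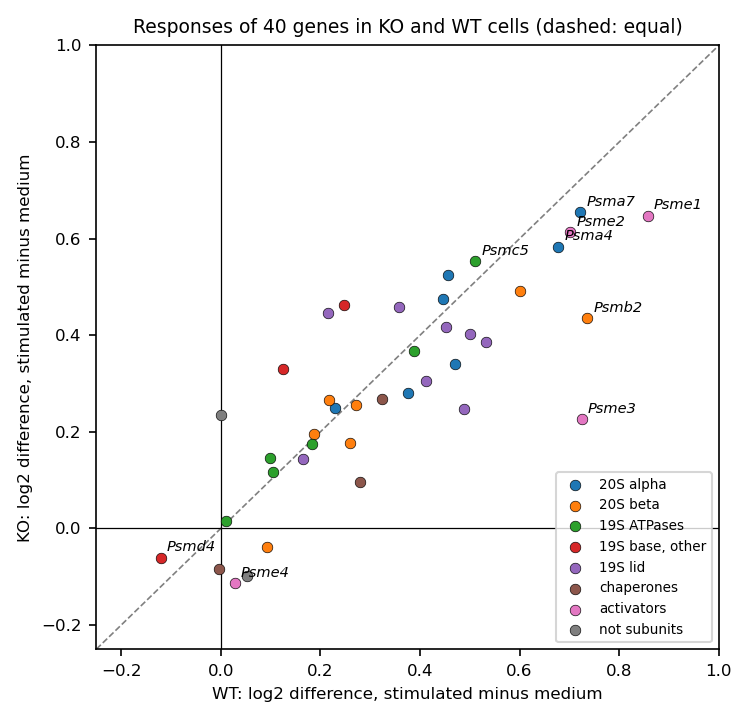
Stimulation difference (log2) of each of the 40 genes in KO cells (vertical axis) against that in WT cells (horizontal axis), coloured by role, with a dashed line where both are equal. Psme3 lies farthest below the line, at 0.23 in KO and 0.73 in WT cells, and most of the alpha and lid subunits lie near it.

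The other genes of the pathway came from lists by role. The 3 immunoproteasome subunits, which replace the catalytic subunits, had larger differences than those: Psmb9 rose by 0.78 ± 0.11 in KO and 1.05 ± 0.11 in WT cells (SE, adjusted p = 0.0134 and 0.00608), and Psmb10 by 0.70 ± 0.11 and 0.80 ± 0.11 (SE, adjusted p = 0.0200 and 0.0137). Psmb8 rose in WT cells by 0.75 ± 0.15 (SE, adjusted p = 0.0325), and its KO difference was 0.52 (adjusted p = 0.0928). Within each array the log2 ratio of an immunoproteasome subunit to the subunit it replaces was then compared between the 4 stimulated and the 4 medium arrays, permuted within genotype, for 3 pairs chosen after values were seen.

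The ratio of Psmb9 to Psmb6 differed, stimulated minus medium, by 0.59 in KO and 0.86 in WT cells, that of Psmb8 to Psmb5 by 0.27 and 0.48, and that of Psmb10 to Psmb7 by 0.21 and 0.20. The exact permutation p was 0.0556 for each of the first 2 pairs, the smallest that 36 arrangements allow, and 0.111 for Psmb10 over Psmb7 (two-sided, adjusted over the 3 pairs 0.0833, 0.0833 and 0.111). None of the pairs could therefore pass 0.05. From the KO arrays numbered 1 alone the KO changes were 0.59, 0.36 and 0.15, in the order of the pairs above. All these ratios use the brightest probe of each gene. The second Psmb5 probe rose by 0.43 in KO and 0.41 in WT cells, against 0.26 and 0.27 on the brightest. The change of Psmb8 over Psmb5 would therefore be smaller with that probe, and the ratio to it was not tested.

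**Figure D5:**
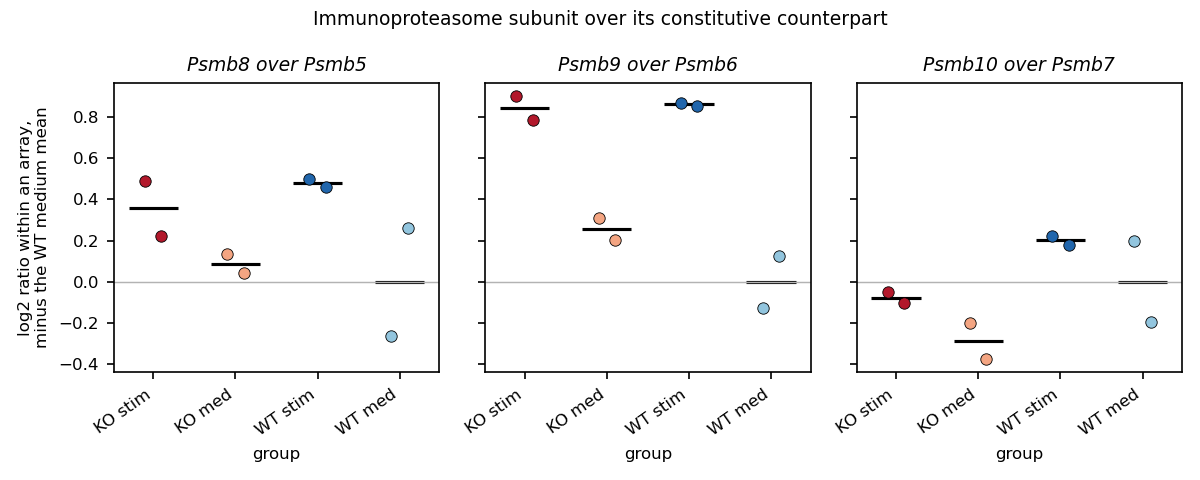
Log2 ratio of an immunoproteasome subunit to its constitutive counterpart within each array (points, vertical axis), set to 0 at the WT medium mean, with group means as lines, for stimulated KO (KO stim), KO medium (KO med), stimulated WT (WT stim) and WT medium (WT med) cells. On the brightest probe of each gene, the stimulated arrays lie above all medium arrays of the same genotype for Psmb9 over Psmb6 and Psmb8 over Psmb5.

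Of the 20S assembly factors and the core inhibitor, 1 of 6 was called in each genotype: Psmg4, an assembly chaperone of the alpha ring, rose by 0.84 ± 0.10 in KO and 0.81 ± 0.10 in WT cells (SE, adjusted p = 0.00912 and 0.0105). Pomp, which is needed for the maturation of the core, rose in the averaged contrast by 0.53 ± 0.11 (SE, adjusted p = 0.0216), as did the assembly chaperones Psmg1 (0.43, adjusted p = 0.0322) and Psmg3 (0.34, adjusted p = 0.0490), while the inhibitor Psmf1 had 0.16 (adjusted p = 0.194) and Psmg2 0.37 (adjusted p = 0.161). Among 10 tested proteins that bind the proteasome none was called within a genotype, and Ubqln1 and Rad23b, shuttle proteins that carry ubiquitinated substrates, rose in the averaged contrast by 0.48 ± 0.10 and 0.44 ± 0.10 (SE, adjusted p = 0.0218 and 0.0253).

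Transcription factors known to act on proteasome genes did not move together. Of 7 tested regulators, the small Maf proteins Maff and Mafk, which pair with Nfe2l1 and Nfe2l2, rose: Maff by 1.29 ± 0.17 in KO and 0.93 ± 0.17 in WT cells (SE, adjusted p = 0.0108 and 0.0279), and Mafk by 0.59 ± 0.13 in both (adjusted p = 0.0466 and 0.0428). Nfe2l1, the factor that raises proteasome genes when the proteasome is inhibited, had differences of 0.27 in KO and 0.06 in WT cells, and Nfe2l2 had -0.29 and -0.34, with adjusted p of 0.184 or above for both. None of 9 tested genes of ubiquitin and its activation was called in either genotype.

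Of 6 genes of peptide loading and its regulation, 5 were called higher in both genotypes. Irf1, a factor that activates immunoproteasome genes, rose by 1.71 ± 0.16 in KO and 1.67 ± 0.16 in WT cells (SE, adjusted p = 0.00402 and 0.00446). The peptide transporter subunits Tap1 and Tap2 rose by 0.90 and 0.51 in KO and 0.99 and 0.59 in WT cells. Tapbp and Erap1, which help to load and trim peptides, rose by 0.88 and 1.04 in KO and 0.99 and 1.16 in WT cells, while B2m had 0.05 and 0.39 and was not called. Il2, induced in activated T cells, rose by 6.79 in KO and 5.86 in WT cells on the same scale.

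Without both KO arrays numbered 2, fewer of the genes in these lists passed the test in KO cells. Irf1 remained called there (1.52, adjusted p = 0.0228), and none of the other genes of the 6 lists was. The KO differences were then 0.71 for Psmb9 (adjusted p = 0.106), 0.57 for Psmb10 (0.126), 0.84 for Psmg4 (0.0689), 0.96 for Maff (0.0591), 0.45 for Mafk (0.251) and 1.0 for Erap1 (0.0589). Tap1, Tap2 and Tapbp had 0.76, 0.46 and 0.82 in KO cells. In the averaged contrast all 3 immunoproteasome subunits, Psmg4, Maff, Mafk and the same 5 peptide loading genes were called higher, while Pomp, Psmg1, Psmg3, Ubqln1 and Rad23b were not (adjusted p from 0.0645 to 0.112). Ngly1, which removes glycans from Nfe2l1, was called lower there in WT cells (-0.65, adjusted p = 0.0343) and in the averaged contrast (-0.61, adjusted p = 0.0260).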

How the data were processed

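Gene expression in splenic T cells was measured on 8 1-colour Agilent arrays, 4 groups of 2, with 62976 spots and 55681 probes each. The deposited scanner intensity values were made with Agilent Feature Extraction 10.7.1.1, which corrects the background, per the file headers. The median signal intensities of the deposited value table were identical to those of the scanner files, and they served as an alternative. The number of arrays limits the precision. The probes well above background made up 69.3% and 68.8% of the WT medium arrays and 65.5% and 60.2% of the KO medium arrays. They made up 59.3% and 58.4% of the stimulated WT arrays and 59.7% and 61.05% of the stimulated KO arrays.

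The log2 of the processed signal was taken minus that of the array's 75th percentile. Control spots and outlier spots were left out and repeated spots averaged. Probes were named through RefSeq accessions (26056 named, 29625 not), and the brightest probe per gene was kept if each array of some group had it well above background. One model with 4 group means was fitted with limma 3.58.1 in R 4.3.3 (lmFit and eBayes, 4 residual degrees of freedom), and Benjamini-Hochberg adjustment ran over all 15140 genes. Every member is named; levels on each array are given for members called within a genotype, Psmb5 to Psmb7 and Psme1 to Psme4, and, chosen after values were seen, for Psmc5, Psmd4, Psmd7, Psmd14, Psmc3ip and, in WT medium, Psmb2. Every called gene of the other pathway lists is named. In addition, 1 gene planned for the peptide loading list is not reported here. Members and lists were chosen with earlier results of these data known. A mean signal column was absent, so normexp ran on the median signals.

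All arrays share a slide, with the stimulated arrays in one row of it and the medium arrays in the other. Same-numbered arrays deviated together in KO cells (correlation 0.74 between stimulated and medium) and less in WT cells (0.16), and by -0.24 to -0.06 across genotypes; the numbers were not taken as pairs. Alternatives were background correction, scaling, filter, probe rule, variance prior, replicate block and arrays left out.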

Additional observations from a re-analysis of the deposited data

How the results depend on the processing

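Members called higher numbered 3 in KO cells, 6 in WT cells and 20 in the averaged contrast, out of 40, and no setting tried called a member lower or called a member between genotypes or between responses. The KO, WT and averaged counts were 5, 10 and 22 with normexp, 5, 8 and 22 from the deposited value table, 3, 6 and 19 with quantile normalization, 2, 7 and 21 with median centring, 0, 6 and 18 without a filter, 6, 9 and 20 with probes well above background on all 8 arrays, 3, 6 and 21 with probes averaged, 9, 14 and 26 with an intensity trend in the variance prior, and 0, 10 and 9 without both KO arrays numbered 2. With only the compared groups they were 0 in KO and 10 in WT cells. A replicate block gave 2, 6 and 19, and a replicate block within genotype 5, 13 and 21. Leaving out 1 array at a time gave 0 to 3 in KO cells, 0 to 6 in WT cells and 4 to 20 averaged. In the main fit 5.85% of all genes were called higher in KO cells, 6.42% in WT cells and 12.2% averaged. The shares of all genes under most other settings, with single arrays left out among them, are not given. The counts therefore do not show whether the members moved apart from other genes. Fewer arrays and fewer or more genes tested are part of several of these settings, and otherwise the cause was not tested.

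The median member difference with 1 array left out ran from 0.21 to 0.35 in KO cells, 0.27 to 0.33 in WT cells and 0.27 to 0.37 averaged, from -0.0855 to 0.0486 for KO minus WT after stimulation and from -0.115 to 0.0235 for the difference between responses. It was 0.0362 for KO minus WT after stimulation with quantile normalization. Median centring gave 0.41 for stimulation in WT cells, where the median over all genes also moved, to 0.02 from -0.09, and gave 0.12 for KO minus WT in medium and -0.16 for the difference between responses. Without both KO arrays numbered 2 the difference between responses was -0.12. Of 40 members, 35 kept the sign of the KO difference and 34 that of the WT difference in all 20 settings. The exceptions were Psmc1, Psmc3, Psmc3ip, Psmc6 and Psmd4 in KO cells and Psmc2, Psmc3ip, Psmc6, Psmd10, Psme3ip1 and Psme4 in WT cells.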
